A study of Mus musculus with 3 samples.

Results

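Cd209 lectin macrophages are heart cells with the complement gene signature of macrophages (C1qa, C1qb and C1qc) that carry transcripts of the lectin genes Cd209d, Cd209f and Cd209g. The cells were chosen by their own measured UMIs: a cell counted as one when the C1q genes made up at least 0.3% of its unique molecular identifiers (UMIs, each standing for 1 captured transcript), when Cd209d, Cd209f and Cd209g together had at least 2 UMIs, and when Ccr2, the chemokine receptor of monocyte-derived cells, had 0. This rule found 581 cells among 8012 C1q-gated cells and 10171 cells in all. The numbers were 265 of 2293 C1q-gated cells in the library of the control diet (CD), 240 of 2002 in that of the high fat diet (HFD) and 76 of 3717 in that of the Western diet (WD). The remaining 2028, 1762 and 3641 C1q-gated cells are called the other C1q-gated cells.

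The study profiled single heart macrophages; all mice were wild type, 32 to 34 weeks of age, and each received 1 of these 3 diets. Hearts were digested with collagenase II at 5 mg/ml for 30 min at 37 °C, and cells positive for CD45, F4/80 and CD11b were sorted for droplet sequencing. There was 1 library per diet, so differences between diets have no replicates and no test. How many mice a library pools was not stated in the labels.

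The Cd209 genes encode relatives of human DC-SIGN, membrane proteins with a C-type lectin domain that binds sugars on microbes and on the body's own glycoproteins. The mouse has a cluster of these genes, several of which are transcribed in macrophages of connective tissue. Tissue-resident heart macrophages, which renew themselves without much input from blood monocytes, are commonly recognised by Lyve1, Timd4 and Folr2 and by the lack of Ccr2.

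The libraries differed in ways other than diet. Totals were 17464149 UMIs in CD, 16630481 in HFD and 79269380 in WD, and the cells kept had medians of 4223, 2751 and 11668 UMIs. The file headers name software version 7.2.0 for WD and 3.0.1 for the other libraries, and 60 of the 4775 WD cell barcodes occur in the whole barcode list of CD. CD shared 15 cell barcodes with HFD and 1 with WD, and HFD and WD had 0 in common. Diet, software version, barcode set and depth cannot be told apart for WD.

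The 3 lectin genes of the rule lie in 1 cluster on chromosome 8 of GRCm38, which spans 394311 bases from Cd209a to Cd209g. Cd209f (chr8:4102787-4105835, minus strand) and Cd209g (chr8:4134098-4137707, plus strand) lie on opposite strands, 28262 bases apart, while Cd209d lies at chr8:3871824-3878555 on the minus strand. The stretches just upstream of their protein-coding transcripts are shown because Cd209f and Cd209g were found together in most of the cells. They come from RefSeq promoter windows of build GRCm38.p6 and cover chr8:4105836-4106014, chr8:4134486-4134651 and chr8:3878556-3878749. Capitals mark the longest run that Cd209f and Cd209g have in common, 83 bases.
Cd209f: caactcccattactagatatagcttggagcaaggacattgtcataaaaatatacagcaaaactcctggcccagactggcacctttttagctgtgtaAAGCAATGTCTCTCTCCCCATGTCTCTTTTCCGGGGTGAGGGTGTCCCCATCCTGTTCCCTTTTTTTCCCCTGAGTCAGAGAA
Cd209g: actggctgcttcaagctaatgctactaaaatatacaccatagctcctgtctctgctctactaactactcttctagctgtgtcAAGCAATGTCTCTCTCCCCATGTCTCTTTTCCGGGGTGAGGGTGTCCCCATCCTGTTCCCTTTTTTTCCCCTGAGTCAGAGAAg
Cd209d: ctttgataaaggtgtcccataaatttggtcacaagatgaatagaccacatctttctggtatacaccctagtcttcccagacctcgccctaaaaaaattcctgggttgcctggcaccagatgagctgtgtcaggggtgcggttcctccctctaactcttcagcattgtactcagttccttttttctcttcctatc

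Over the whole windows of 300 bases, the identical run of Cd209f and Cd209g was 180 bases long. The printed stretch of Cd209d had no run longer than 8 bases in common with that of Cd209f and none longer than 10 with that of Cd209g. The run holds TGAGTCA, a motif bound by AP-1 factors. Searched on both strands, this motif occurred in the windows of Cd209f and Cd209g and in none of Cd209a, Cd209b, Cd209c, Cd209d, Cd209e, Ccl8, Pla2g2d and Fcna, against 1396 of 27025 windows of all genes (5.17%). Within the last 500 bases of the protein-coding transcripts, no word of 50 bases of Cd209d, Cd209f or Cd209g occurred in a protein-coding transcript of another Cd209 gene.

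Most Cd209 lectin macrophages carried more than 1 of the 3 lectins. The description in this and the next 2 paragraphs rests on the genes that chose the cells, and no test applies to it. Cd209f was found in 256 of 265 cells in CD, 221 of 240 in HFD and 73 of 76 in WD. Cd209f and Cd209g without Cd209d were found in 134, 104 and 39 cells, and all 3 genes in 65, 69 and 11. Cells with Cd209d alone numbered 2, 7 and 2. A cell had a median of 7, 7 and 5 lectin UMIs, and the highest had 114, 110 and 51. Just inside the threshold, 38, 35 and 9 cells had exactly 2 lectin UMIs, and just outside it 88, 68 and 61 Ccr2-negative cells had 1.

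The share of Cd209 lectin macrophages among C1q-gated cells was 11.6% in CD (exact Clopper-Pearson 95% interval 10.3 to 12.9), 11.99% in HFD (10.6 to 13.5) and 2.04% in WD (1.61 to 2.55). All intervals here cover counting error only. The CD and HFD intervals overlapped, and that of WD lay below both although its cells were the deepest. With the lectin UMIs thinned to a depth of 1000 UMIs per cell, the shares were 6.19%, 8.14% and 0.215%. The C1q and Ccr2 limits were kept at full depth there, so the thinned shares are not equal in depth for these limits. Summed over all C1q-gated cells, where no threshold per cell enters, the 3 lectins had a level of 371 CPM for CD, 561 for HFD and 16.9 for WD (CPM, UMIs per 1000000 UMIs of the same cells). Of these UMIs 80.5%, 93.5% and 62.6% lay in the Cd209 lectin macrophages. For Cd209d in WD this was 36.0%, so most of its few UMIs there lay in other C1q-gated cells. C1q genes, which set the gate, made up 2.41% and 2.55% of the UMIs of these cells in CD and HFD and 1.04% in WD.

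**Figure D1:**
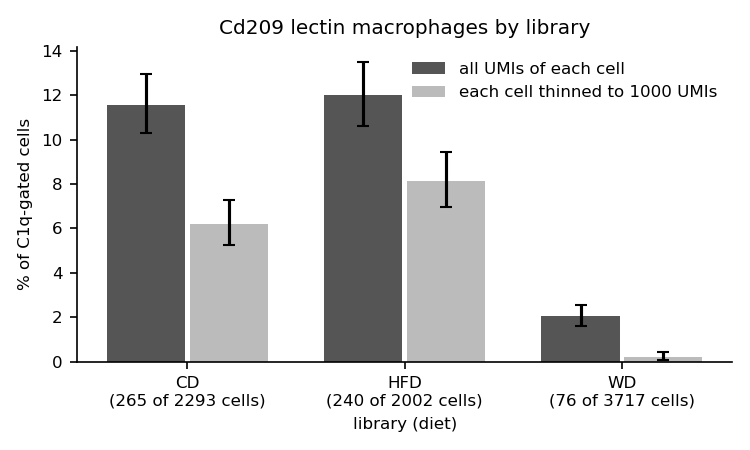
Share of C1q-gated cells (in %) that were Cd209 lectin macrophages in each library, from all UMIs of a cell (dark bars). Light bars are shares with the lectin UMIs thinned to a depth of 1000 UMIs per cell and the C1q and Ccr2 limits at full depth. Error bars are exact 95% intervals for counting error. WD was lowest under both measures (2.04% and 0.215%).

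Droplets can hold free transcripts, so the lectins were also counted in cells outside the C1q gate without Csf1r or Adgre1 UMIs. Of these, 0 of 284 in CD (which allows a share of up to 1.06%), 4 of 584 in HFD and 3 of 329 in WD had at least 2 lectin UMIs, at median depths of 2754, 1920 and 5632 UMIs. At least 1 lectin UMI was found in 1.41%, 4.28% and 2.74% of them, and in 19.5%, 17.5% and 5.84% of the C1q-gated cells. Of all cells outside the C1q gate, with or without Csf1r or Adgre1, 6 of 386, 9 of 715 and 29 of 1058 had at least 2. Inside the gate, whatever their Ccr2, 324 of 2293, 260 of 2002 and 119 of 3717 had. The Cd209 lectin macrophages themselves had medians of 4777, 3356 and 14965 UMIs, and the other C1q-gated cells 4243, 2871 and 12210. Ccr2 excluded 59 of 324 lectin-positive C1q-gated cells in CD, 20 of 260 in HFD and 43 of 119 in WD. A score from simulated doublets marked 6, 2 and 3 of the Cd209 lectin macrophages, which were kept.

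The other genes named as markers of these cells were higher in them in every library. Ccl8, a chemokine for monocytes and T cells, had 2734 CPM with CD, 2884 with HFD and 232 with WD, against 588, 335 and 77.2 in the other C1q-gated cells. Clec10a, a lectin for galactose-type sugars, had 565, 758 and 289 CPM against 147, 125 and 64.6. Fcna, which encodes the secreted pattern recognition protein ficolin A, had 315, 454 and 174 CPM against 94.4, 57.9 and 50.8. Pla2g2d, a secreted phospholipase, had 307, 554 and 63.7 CPM against 80.8, 113 and 23.5. These markers were given together with the rule, so the values describe the cells and test nothing.

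**Figure D2:**
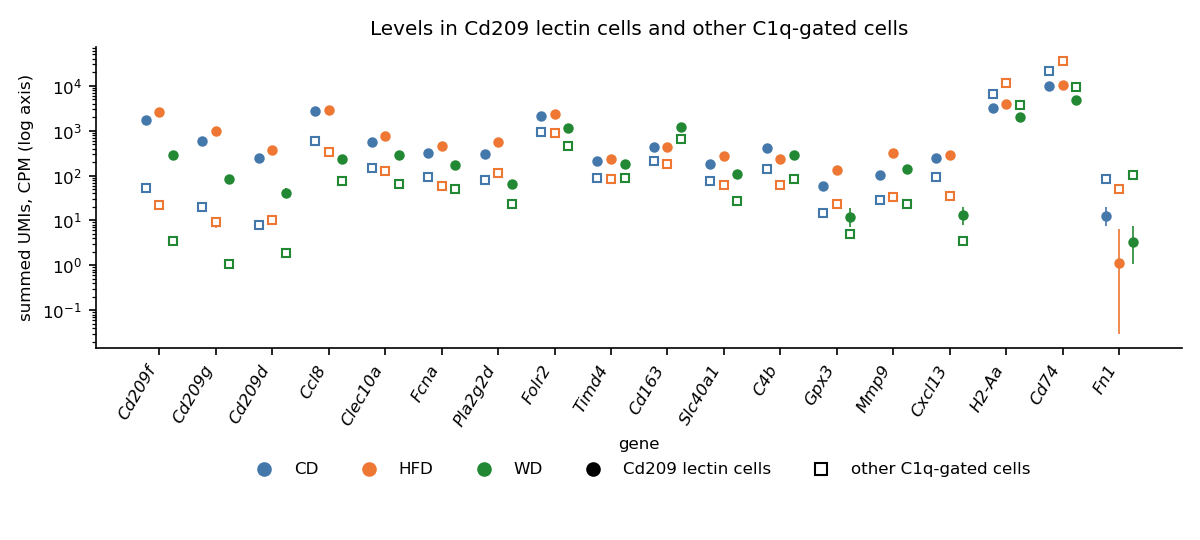
Level (summed UMIs as CPM, log axis) of 18 genes in Cd209 lectin macrophages (filled circles) and other C1q-gated cells (open squares), coloured by library, with exact 95% Poisson intervals for counting error. The genes from Cd209f to Cxcl13 lay higher in the Cd209 lectin macrophages of each library, and H2-Aa, Cd74 and Fn1 lay lower.

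The markers also differed with the number of lectin UMIs. In HFD, Ccl8 had 450 CPM in Ccr2-negative C1q-gated cells with 0 lectin UMIs, 286 with 1, 763 with 2, 2378 with 3 to 5 and 3372 with 6 or more. In CD the same classes had 633, 1066, 760, 1933 and 3397 CPM. In WD they had 87.6, 273, 163, 207 and 266, so no class of WD reached the lowest class of CD or HFD. Clec10a went from 155 to 642 CPM between the first and the last class in CD, from 135 to 904 in HFD and from 62.8 to 335 in WD. Folr2, a folate receptor of resident macrophages that the rule did not use, went from 1236 to 2353, from 1152 to 2407 and from 540 to 1200 CPM. H2-Aa, an MHC class II chain, had 9534, 8433, 8522, 5304 and 2863 CPM across the classes in HFD, while in CD its lowest value was 1930 at exactly 2 lectin UMIs. Cells with 6 or more lectin UMIs were deeper (medians of 5154, 3955 and 15231 UMIs) than cells with 0 (3861, 2579 and 11137), and the part of depth in these differences was not tested.

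**Figure D3:**
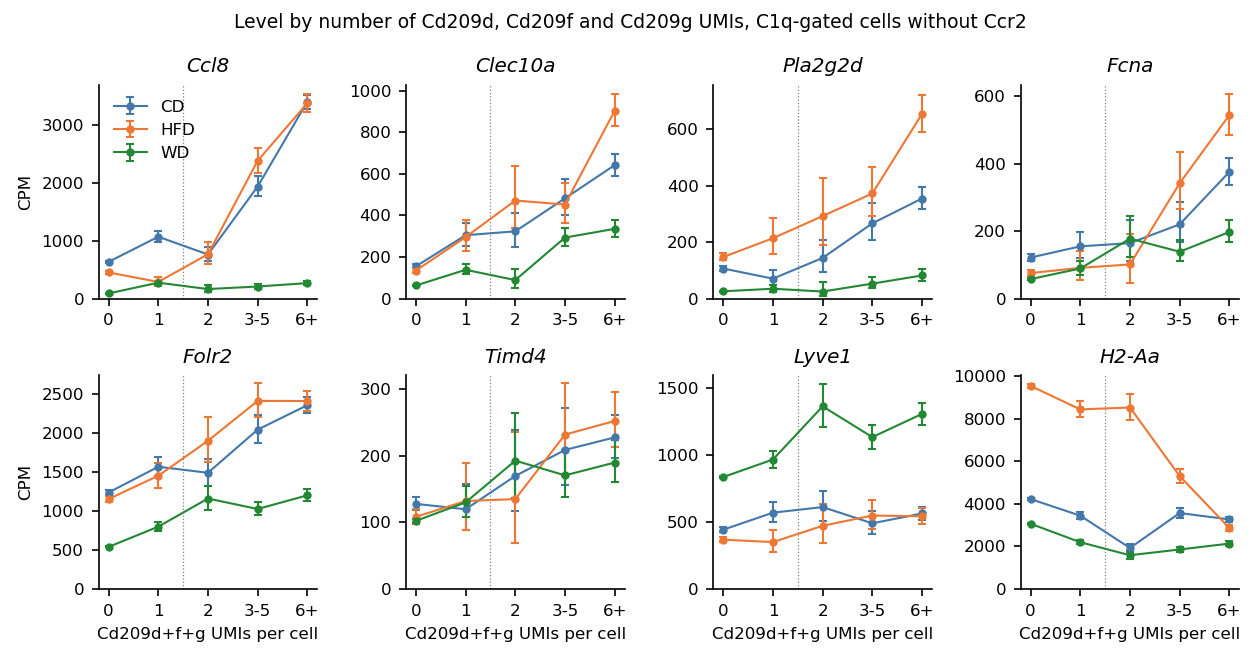
Level (CPM) of 8 genes in C1q-gated cells without Ccr2, by the summed Cd209d, Cd209f and Cd209g UMIs of the cell. Lines join the classes of 1 library, error bars are exact 95% Poisson intervals, and the dotted line marks the threshold of 2 UMIs; Ccl8 in HFD goes from 450 to 3372 CPM.

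The Cd209 lectin macrophages were then compared with the other C1q-gated cells across all genes, as UMI sums of both populations paired within the 3 libraries. By edgeR's quasi-likelihood test with Benjamini-Hochberg adjustment, 599 of 10922 genes were higher (5.48%) and 979 lower (8.96%), 14.4% together, and 1480 of the 1578 had the same sign in each library. The gate and marker genes were left out of these counts. With every cell thinned to 1000 UMIs, 69 of 8538 genes were called higher and 219 lower, 288 together. Thinning leaves fewer UMIs in both sums, and the part of depth in the calls was not tested. DESeq2 called 318 higher and 333 lower.

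Other members of the lectin family were higher as well. Cd209b, the relative best known from marginal zone macrophages of the spleen, had 70.0 CPM with CD, 197 with HFD and 21.7 with WD against 3.28, 7.34 and 0.874 (log2 fold change 4.55 ± 0.19 SE, adjusted p = 1.89e-67). It was found in 14.7%, 16.2% and 14.5% of the Cd209 lectin macrophages and in 0.838%, 0.795% and 0.494% of the other C1q-gated cells. After thinning, these shares were 4.91%, 8.33% and 2.63% against 0.197%, 0.454% and 0.110%. Its UMIs were concentrated: the 27, 24 and 8 cells with the most held 87.2%, 88.4% and 90.9% of them. Cd209a, the family member usually found in dendritic cells, differed between libraries. It had 61.1 and 221 CPM in CD and HFD against 36.5 and 42.8, but 31.5 against 42.3 in WD, and the pooled log2 fold change was 0.96 ± 0.14 SE (adjusted p = 5.64e-09). The share of cells with a Cd209a UMI was higher in each library, WD included, at 14.3%, 29.2% and 23.7% against 4.14%, 3.58% and 6.78%. After thinning it was 4.15%, 17.1% and 3.95% against 1.43%, 1.65% and 1.26%. Cd209e was also called higher (4.11 ± 0.94 SE, adjusted p = 0.000318), from only 4, 4 and 2 UMIs in the Cd209 lectin macrophages and 1, 1 and 6 in the others, and Cd209c was not (adjusted p = 0.594).

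All 12 tested genes of resident heart macrophages were higher, with a median log2 fold change of 0.86 against -0.03 over all genes. Folr2 had 2168, 2357 and 1136 CPM against 952, 888 and 467 (1.24 ± 0.09 SE, adjusted p = 6.42e-31). Timd4, a receptor for phosphatidylserine on dying cells, had 215, 235 and 184 CPM against 89.6, 84.1 and 90.0 (1.19 ± 0.10 SE, adjusted p = 2.85e-23). Lyve1, a hyaluronan receptor, had 556, 537 and 1255 CPM against 344, 280.5 and 710. The lowest value of the list was that of Vsig4, a receptor for complement fragments, at 0.67 ± 0.11 SE. All 12 had higher CPM in each of the 3 libraries. Vsig4 in HFD was found in 7.92% of the Cd209 lectin macrophages and 7.83% of the others, and after thinning in 3.75% and 4.31%. The top cell held 26.6% of its UMIs in the Cd209 lectin macrophages there. Against other C1q-gated cells that also had 0 Ccr2 UMIs, 11 of the 12 were still higher, with a median of 0.60.

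Scavenger receptors and iron handling followed. Of 11 scavenger receptor genes, which include Cd163, Lyve1 and Mrc1 of the resident list, 8 were higher, among them Colec12 (1.10 ± 0.11 SE), Cd163, the hemoglobin receptor (0.99 ± 0.09 SE), and Stab1 (0.65 ± 0.09 SE), and none were lower. Of 12 genes of iron and heme handling 8 were higher and none lower, with a median of 0.59. Slc40a1, the iron exporter ferroportin, had 184, 269 and 108 CPM against 74.4, 61.7 and 27.6 (1.73 ± 0.11 SE, adjusted p = 1.03e-38). Hmox1, which degrades heme, had 410, 431 and 643 CPM against 306, 240 and 460 (0.52 ± 0.09 SE, adjusted p = 2.91e-06). With thinned cells, 3 of 10 scavenger receptor genes and 3 of 11 iron genes passed the test, all higher, where 69 of all 8538 genes tested were higher.

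Complement genes beyond C1q were higher too, 7 of 10 with none lower. C4b, a component of the classical pathway, had 402, 238 and 286 CPM against 143, 60.9 and 84.3 (1.67 ± 0.10 SE, adjusted p = 8.77e-41). C2, the protease that acts with C4, had 19.4, 36.4 and 17.1 CPM against 6.67, 7.52 and 5.62 (1.73 ± 0.24 SE). C3, Cfb, Cfp and Vsig4 were among the others. Among the genes with the largest differences, Cd55, a brake on complement at the cell surface, had 7.45, 35.2 and 6.56 CPM against 1.99, 1.92 and 4.51. Its call was lost without the HFD library.

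Chemokine genes were split, with 6 of 17 higher and 8 lower. Ccl24, an eosinophil attractant, had 942, 1160 and 443 CPM against 356, 337 and 182 (1.44 ± 0.09 SE, adjusted p = 2.12e-36). Ccl6, Pf4, Cxcl12 and Ccl7 were called at 0.33 to 0.64 on the log2 scale, with Ccl7 at 360 against 377 CPM in CD. Cxcl13, the B cell attractant, had 242, 285 and 13.1 CPM against 91.8, 35.0 and 3.48 (2.04 ± 0.13 SE). It came from few cells: 33 of 265, 17 of 240 and 5 of 76 had a UMI, and the 27 cells with most UMIs held 98.2% of them in CD, while 24 and 8 cells held all of them in HFD and WD. Ccl8 had UMIs in 182, 164 and 46 cells, and the same numbers of top cells held 69.7%, 56.4% and 59.8% of them, with 322 of 3671 UMIs in 1 CD cell. The lower chemokine genes included Cxcl10, Ccl5, Cxcl2, Ccl3 and Ccl4.

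The 12 genes with the largest rises were Cd209b, Mmp9, Sema6a, Cxcl13, Cd55, Gpx3, Cxcr3, Cela1, Siglech, Dmpk, Slc40a1 and C2. Mmp9, a matrix-degrading protease, had 101, 318 and 143 CPM against 28.4, 32.5 and 23.6 (2.54 ± 0.12 SE, adjusted p = 7.74e-60). It was found in 24.5%, 45.0% and 46.1% of the Cd209 lectin macrophages and in 6.95%, 5.90% and 11.97% of the other C1q-gated cells, and after thinning in 8.68%, 23.8% and 9.21% against 1.82%, 2.84% and 2.005%. Mmp9 is also a neutrophil gene. The 8 neutrophil markers, Mmp9 among them, summed to 870, 349 and 1833 CPM in the Cd209 lectin macrophages. In the others they summed to 846, 168 and 1201. Mmp9 alone gave 318 of the 349 CPM in HFD, and 32.5 of the 168 in the others. In CD and WD it gave 101 of 870 and 143 of 1833 CPM, against 28.4 of 846 and 23.6 of 1201. Camp and Ltf were at 0 in the Cd209 lectin macrophages of each library, and the part of neutrophil transcripts in the result was not tested. Gpx3, a secreted peroxidase, had 58.8, 131 and 11.8 CPM against 14.3, 23.8 and 5.11. Cxcr3 rested on 20, 28 and 2 UMIs, and its call was lost without the HFD library, as was that of Dmpk.

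Genes of MHC class II presentation were lower, 10 of 11, with a median of -1.27. H2-Aa had 3135, 3989 and 1971 CPM against 6653, 11600 and 3678 (-1.23 ± 0.09 SE, adjusted p = 6.85e-30). Cd74, the invariant chain, had 10037, 10536 and 4816 CPM against 21886, 36188 and 9431 (-1.34 ± 0.09 SE, adjusted p = 1.7e-33). Ciita, the transcriptional activator of these genes, was at -1.23 ± 0.15 SE. The remaining gene, H2-Oa, was at 4.47, 1.14 and 0 CPM against 5.77, 4.37 and 2.76 (adjusted p = 0.148). With Ccr2-negative other cells as the comparison, 8 of 10 were lower, with a median of -0.79.

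Genes of monocyte-derived macrophages were lower in 9 of 11 cases. Fn1, fibronectin, had 12.7, 1.14 and 3.28 CPM against 85.1, 50.5 and 101 (-3.82 ± 0.22 SE). Cx3cr1 had 61.1, 27.3 and 47.3 CPM against 191, 183 and 93.7. Chil3 had no UMI in the Cd209 lectin macrophages, at least 12.8-fold lower in CD and at least 6.78-fold lower in WD when 3 UMIs per library stand for the 0; in HFD both populations were under that floor. Lyz2, a lysozyme gene of all these cells, was not called (-0.05 ± 0.09 SE). The rule sets Ccr2 to 0, and the 7 classical monocyte markers summed to 52.9, 0 and 40.0 CPM against 447, 251 and 251. Against Ccr2-negative other cells 4 of 10 of the monocyte-derived genes passed, all lower, and the call of Ear2 was lost.

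Of the 8 genes with the largest falls, Gdf3, Upb1 and H2-M2 had no UMI in any Cd209 lectin macrophage. Against 3 UMIs per library, Gdf3, a growth factor, was at least 4.99-fold lower in CD, 3.54-fold in HFD and 1.03-fold in WD. Gpnmb, a glycoprotein of lipid-laden macrophages, had 0.745, 0 and 2.62 CPM against 44.9, 21.0 and 4.27. Ccl17, a T cell attractant of dendritic cells, had 0.745, 0 and 1.97 CPM against 47.3, 23.1 and 4.27. Cxcl9, Kcnn4 and Ear2 completed the set. DESeq2 did not call Gpnmb and Ccl17, and thinning ended the calls of Gdf3, Gpnmb and Kcnn4.

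Inflammatory genes were lower as well. Of 16 genes of NF-kB and inflammatory cytokines 14 fell, with a median of -0.73. Tnf had 26.1, 2.27 and 38.1 CPM against 41.1, 6.47 and 103 (-1.21 ± 0.17 SE, adjusted p = 1.25e-09). Il1b had 124, 15.9 and 417 CPM against 176, 84.1 and 807, and Il6 and Ccl2 were not called. Immediate early genes, which also rise during tissue digestion, were lower in 11 of 16 cases with a median of -0.35, Fos among them at -0.48 ± 0.09 SE. Fos had 1331, 326 and 2911 CPM against 1719, 491 and 3703, lowest in HFD in both populations.

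Of 14 proliferation genes 12 were lower, such as Mki67 (-0.90 ± 0.18 SE) and Top2a (-0.94 ± 0.17 SE), and of 15 ribosomal protein genes 14 were lower with a median of -0.42. With thinned cells, 1 of 12 and 1 of 15 of these were lower, where 219 of 8538 genes were. The lipid-associated genes divided: Apoe, Ctsd, Ctsl, Cd63 and Lipa were higher and 8 of 16 lower, led by Gpnmb, Mmp12 and Spp1. Spp1, osteopontin, had 4.47 and 2.27 CPM against 233 and 99.0 in CD and HFD, but 18.4 against 17.8 in WD. Among 20 transcription factor genes, Rxra, Tfec, Maf and Tcf4 were higher and Bhlhe40, Pparg, Id3 and Id2 lower. Maf, a factor of self-renewing macrophages, had 538, 628 and 1233 CPM against 359, 352 and 828 (0.61 ± 0.09 SE). Of 16 interferon response genes 1, Ifitm3, was higher, 1, Cxcl10, was lower and 14 were not called. With 5.48% of all genes higher and 8.96% lower, these counts do not set the list apart.

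**Figure D4:**
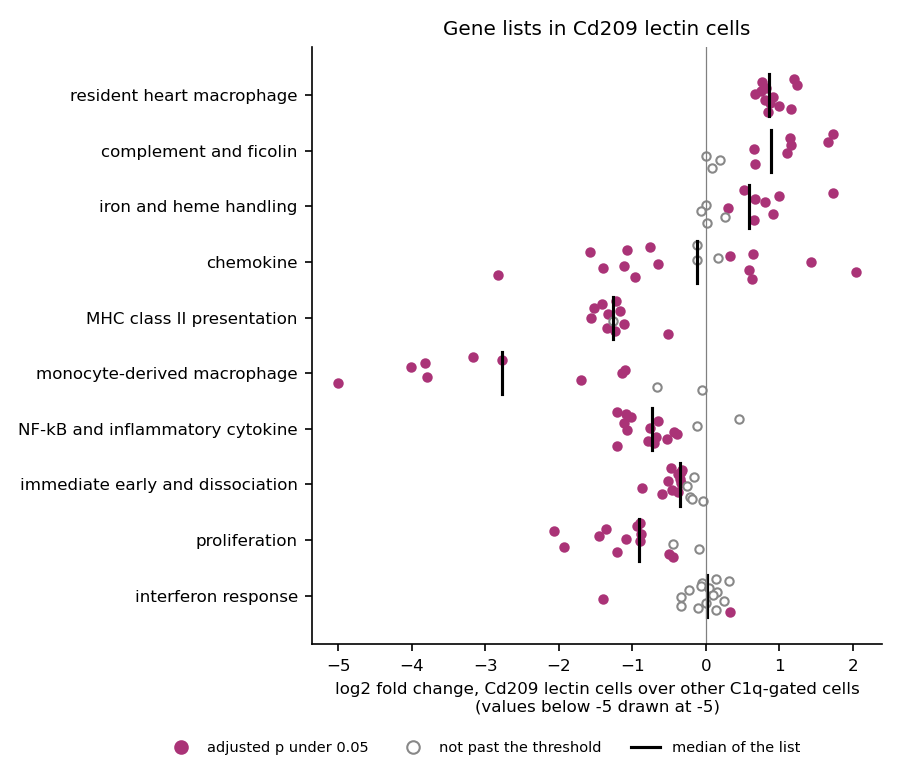
Log2 fold change of each gene of 10 lists, Cd209 lectin macrophages over other C1q-gated cells, over the 3 libraries. Filled points passed the test, open points did not, and bars are list medians; the median of resident genes is 0.86 and that of MHC class II genes -1.27.

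A narrower comparison set the Cd209 lectin macrophages against 577, 377 and 1940 Ccr2-negative C1q-gated cells with no lectin UMI and at least 2 UMIs of Lyve1 and Timd4, that is, against other resident-type cells. Here 73 of 9221 genes were higher (0.792%) and 155 lower (1.68%), 2.47% together. Of 9 genes of MHC class II presentation 0 were called: H2-Aa had 3135, 3989 and 1971 CPM against 2262, 4555 and 2311 (-0.01 ± 0.11 SE, adjusted p = 0.99 by edgeR). At an unadjusted p under 0.05 the count was 0 of 9 as well, DESeq2 called 0, and without the CD library 2 were lower. A p that misses the threshold does not show equal levels. Over all genes in this comparison, 1176 had an unadjusted p under 0.05, and DESeq2 called 73.

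What stayed higher against these cells were the lectins, complement and a few resident genes. Cd209b had 2.04, 0.734 and 0.321 CPM in the comparison cells (5.98 ± 0.28 SE, adjusted p = 1.96e-13). Cd209a had 10.2, 4.41 and 3.03 CPM there, below the Cd209 lectin macrophages in each library (3.53 ± 0.26 SE, adjusted p = 2.01e-09). Mmp9, Cxcl13, Cxcr3, Gpx3, Retnla and C2 completed the 8 largest rises. Retnla, a secreted product of alternatively activated macrophages, had 2678, 1415 and 1169 CPM against 1102, 396 and 436 (1.47 ± 0.10 SE, adjusted p = 1.9e-10). Of 10 complement genes 4 were higher, C3, C2, C4b and Cfp. Of 10 resident genes, Lyve1 and Timd4 left out because they chose the comparison cells, Igf1, Ninj1, Folr2, Igfbp4 and Cd163 were higher by 0.36 to 0.50. Slc40a1 was higher too, at 184, 269 and 108 CPM against 117, 64.6 and 35.9 (1.34 ± 0.16 SE). The chemokine genes Cxcl13, Cxcl12 and Ccl24 were higher and 6 others lower.

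The 8 largest falls in this comparison were Olfml3, Sparcl1, Aqp1, Rgcc, Fabp4, Pdlim7, Phlda3 and Cdkn2a. Olfml3, a secreted matrix protein, had 5.21, 3.41 and 1.31 CPM against 32.6, 20.6 and 8.05 (-2.62 ± 0.34 SE, adjusted p = 2.65e-05). The call of Phlda3 was lost without HFD, that of Cdkn2a without CD and that of Fabp4 with doublet scores removed. Fabp4, a fatty acid carrier, had 38.7, 97.8 and 3.28 CPM against 92.8, 335 and 10.9, and Aqp1, a water channel, had 5.96, 20.5 and 0.656 against 24.5, 72.0 and 6.70. Fabp4, Aqp1 and Sparcl1 are also transcribed in blood vessel cells. The 10 vascular endothelial markers, which include Fabp4 and Aqp1, summed to 67.8, 183 and 20.3 CPM in the Cd209 lectin macrophages and to 168, 544 and 31.1 in the comparison cells. In the former Cdh5 was at 0 in CD, Flt1 in HFD, and Egfl7, Ly6c1 and Emcn in WD; the part of these transcripts in the result was not tested. Of 16 NF-kB and cytokine genes 7 were lower, including Tnf (-1.08 ± 0.19 SE) and Cxcl2 (-0.69 ± 0.14 SE), and Klf4, Klf2 and Id3 were the transcription factors that fell.

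The cells carried the macrophage markers of the label: all 12 had UMIs in each library and summed to 38427, 41423 and 22582 CPM, against 26449, 28439 and 16691 in the other C1q-gated cells. Of the T cell markers, Cd3e, Trac, Trbc2 and Cd8a were at 0 in each library, and Pax5 of the B cell markers was too. The 10 dendritic markers, which contain Cd209a, summed to 90.8, 239.9 and 77.4 CPM against 61.7, 58.4 and 97.5, with Ccr7, Itgae and Ffar2 at 0 throughout and Flt3, Xcr1, Clec9a and Klrd1 also at 0 in HFD, where Cd209a was highest; their part in the Cd209a result was not tested.

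Between diets, only HFD and CD came from the same software version and barcode type. Among 2703 genes with at least 100 UMIs in the 2 sums of Cd209 lectin macrophages together, 114 were higher by at least 1.5-fold in HFD (4.22%) and 111 lower (4.11%), 8.32% in all. The lectins themselves were higher in HFD, Cd209f at 1.52-fold (exact conditional 95% interval 1.43 to 1.61) and Cd209g at 1.67-fold (1.52 to 1.85). Both were part of the rule. Outside it, Cd209a had 221 CPM in HFD and 61.1 in CD, 3.61-fold (2.78 to 4.73), where the other C1q-gated cells had 1.17-fold. Mmp9 was 3.17-fold higher (2.57 to 3.92) and Cd209b 2.81-fold (2.17 to 3.65), against 1.15-fold and 2.24-fold in the others. Tnnt2, Fabp4 and Cfdp1 followed at 2.59-fold, 2.53-fold and 2.53-fold. Tnnt2 encodes a sarcomere protein of heart muscle. The 10 cardiomyocyte markers, Tnnt2 among them, summed to 371 CPM in HFD and 179 in CD, and to 482 and 207 in the other C1q-gated cells. The 10 vascular endothelial markers, which include Fabp4, summed to 183 CPM in HFD and 67.8 in CD, and to 501 and 292 in the others. The part of both lists in these ratios was not tested.

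Inflammatory and immediate early genes were lower in HFD than in CD. All 7 NF-kB and cytokine genes with enough UMIs were past 1.5-fold, with a median log2 ratio of -2.97, and in the other C1q-gated cells the median of the same genes was -1.94. The median was -2.17 over 6 genes at a threshold of 3 lectin UMIs and -2.08 over 6 at 5% mitochondrial UMIs. With thinned cells 3 genes had enough UMIs, 2 of them lower, and the median was -1.42. Cxcl2, a neutrophil attractant, had 28.4 CPM in HFD and 722 in CD, 25.4-fold lower (17.1 to 39.5), and 16.1-fold lower in the others. Ccl3 was 11.3-fold and Ccl4 10.2-fold lower. Of 14 immediate early genes 12 were lower, with a median of -1.59, and -1.55 in the others. Fos had 326 and 1331 CPM, and Atf3 26.1 and 158. The difference was therefore present in both populations.

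S100a8 and S100a9, calcium-binding proteins of neutrophils and monocytes, were the furthest apart. S100a9 had 1 UMI in HFD and 321 in CD (1.14 and 239 CPM), and S100a8 had 4 and 585 (4.55 and 436 CPM). In the other C1q-gated cells S100a8 was 7.03-fold and S100a9 5.29-fold lower in HFD. The neutrophil markers as a list, which holds both and Mmp9, summed to 349 CPM in HFD and 870 in CD. Mmp9 gave 280 of the 307 UMIs of the list in HFD and 135 of 1169 in CD. Retnlg, Cxcr2, Camp and Ltf were at 0 in HFD, and the part of these markers was not tested.

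Of 12 resident genes 1 was past 1.5-fold, near the 8.32% of all genes, and their median log2 ratio was 0.05 against 0.02 over all genes. It was Vsig4, which was lower, at 89.8 CPM in HFD and 247 in CD. Ccl8 was at 1.06-fold (1.00 to 1.11), where it was 1.76-fold lower in the other C1q-gated cells. Retnla was 1.89-fold lower (1.77 to 2.02), where the others were at 1.05-fold. Of 7 MHC class II genes 1, H2-DMb1, was past 1.5-fold, with a median of 0.21 against 0.69 in the others. Among genes with enough UMIs, 0 of 10 iron, 0 of 9 scavenger receptor and 0 of 7 interferon response genes were past 1.5-fold; with 8.32% of all genes past it, these counts do not set the lists apart.

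**Figure D5:**
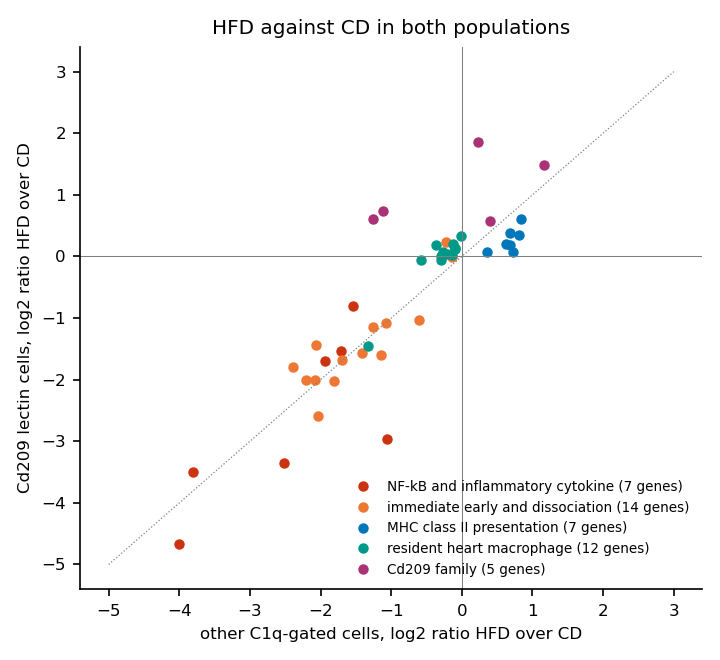
Log2 ratio of HFD over CD for genes of 5 lists, in other C1q-gated cells (horizontal axis) and in Cd209 lectin macrophages (vertical axis), 1 library per diet. Points on the dotted line have equal ratios in both; NF-kB and immediate early genes lie low on both axes, and Cd209f and Cd209g, both part of the rule, lie above 0 on the vertical axis only.

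For WD, 76.7% of genes were past 1.5-fold against CD (45.6% higher, 31.1% lower) and 77.3% against HFD (47.4% higher, 29.9% lower), so single genes cannot be read as diet differences. The largest ratios were those of Pde7b, Ms4a4a, Dip2c, Slc8a1, Pde4d and Pstpip2 against CD, and the other C1q-gated cells had ratios of 33.2-fold to 992-fold for the same genes. Cxcl13 was 18.4-fold lower than in CD (11.7 to 30.6) and Ccl8 11.8-fold lower (10.6 to 13.2), against 26.4-fold and 7.61-fold in the others. C1qa, which set the gate, was 2.004-fold lower. Against HFD, Cd209g, which was part of the rule, was 11.98-fold lower (9.92 to 14.6), against 8.72-fold in the others. The rule also leaves others without Ccr2 with fewer than 2 lectin UMIs, and the WD cells were deeper. Both Cd209g ratios therefore depend on the rule and on depth, and describe the chosen cells only. With 76 cells in WD and 1 library per diet, none of these ratios has a replicate check.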

How the data were processed

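The deposited matrices give each barcode's UMI counts by gene, not normalized, as written by the authors' alignment software (version 3.0.1 for CD and HFD, 7.2.0 for WD, per the file headers). The submitters' processing notes name build GRCm38 and Seurat without versions. The 30406 genes shared by all files were used. Barcodes were kept with at least 1000 UMIs, 200 genes and at most 10% mitochondrial UMIs, which left 2679, 2717 and 4775 cells. UMIs were summed per library and population and tested with edgeR 4.0.16 (quasi-likelihood, TMM, library as replicate block, since both sums of a pair come from 1 library; adjusted p under 0.05). In simulated data for the comparison with other C1q-gated cells (11114 genes), 64.6% of 2-fold and 96.9% of 4-fold changes were recovered, with 7 false calls. Changes were placed only in genes with at least 200 UMIs over all sums and were the same in each library. Every gene was given the same set spread. These rates do not cover genes with fewer UMIs, a wider spread or libraries that disagree. P-values rest on the spread between 3 libraries that differ in diet, which edgeR estimates with information shared between genes. A small p therefore does not show that the libraries agree on a gene. Cd209a and Spp1, for example, were called although WD had the other sign.

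Named genes were the 12 highest and 8 lowest log2 fold changes (8 and 8 against Lyve1 or Timd4 cells) among calls with the same sign in all libraries and at least 20 UMIs in either sum of each, the 6 highest and lowest diet ratios, and members of 26 lists. Members and lists were chosen with earlier results of these data known. Alternatives included DESeq2 1.42.0, other thresholds, doublet removal, thinning and leaving out each library.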

Additional observations from a re-analysis of the deposited data

Results flagged for a closer look

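For 8 genes the difference between Cd209 lectin macrophages and other C1q-gated cells had opposite signs in different libraries, with counting intervals on either side of no difference; whether the libraries differ was not tested, since each diet has 1 library. On the log2 scale, Ccl12, a monocyte attractant, was at 0.94 in HFD and -0.73 in WD. Ckm, muscle creatine kinase, was at 0.93 in WD and -1.11 in HFD. Hbegf, a growth factor, was at 1.10 in CD and 2.29 in HFD but -0.73 in WD. Il10, an anti-inflammatory cytokine, was at 1.38 in CD and 2.70 in HFD but -1.02 in WD, at levels of 4.55 to 7.22 CPM in the Cd209 lectin macrophages. Retnla was at 0.76 in WD and -0.61 in HFD. The interferon response genes Isg15 (0.71 in HFD, -1.34 in WD) and Rsad2 (0.70 in CD, -1.35 in WD) and Spic, a transcription factor of iron-recycling macrophages (0.83 in CD, -0.59 in WD), were also lower in WD.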

How the results depend on the processing

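No recomputed contrast or diet ratio of a named gene changed direction. Some list medians did change sign. For HFD against CD, that of the scavenger receptor genes went from -0.05 to 0.19 with thinned cells. That of the glucocorticoid and IL-10 response genes went from -0.25 over 7 genes to 0.08 over 3. Of 497 recomputed contrasts of named genes 445 kept their side of the threshold and 52 lost it, 32 of them with no replicate block. The 1578 genes called against other C1q-gated cells became 0 with no replicate block (241 at an unadjusted p under 0.05), 651 with DESeq2, 853 with C1q genes at 1% of UMIs, 904 with other cells at 0 Ccr2 UMIs and 288 with thinned cells. Leaving out 1 library gave 751 (without HFD) to 1061 (without WD), with 923 without CD. The 228 genes called against Lyve1 or Timd4 cells became 0 with no replicate block (29 unadjusted), 73 with DESeq2 and 86 at a threshold of 1 lectin UMI, and leaving out 1 library gave 186 to 282. With no filter on low counts the split of the first comparison was 266 higher and 965 lower. The share of Cd209 lectin macrophages at a threshold of 1 lectin UMI came to 15.4% of C1q-gated cells for CD, 15.4% for HFD and 3.69% for WD, and at 3 it was 9.90% in CD and 10.2% in HFD. With only the lectin UMIs thinned, it was 6.19%, 8.14% and 0.215%, and with C1q genes at 1% of UMIs it was 4.17% in WD. Genes past 1.5-fold between diets fell with thinned cells to 64 for HFD against CD, 341 for WD against CD and 304 for WD against HFD, and at 5% mitochondrial UMIs to 2079 and 1724 for the last 2. Fewer UMIs per cell leave fewer genes above the minimum; otherwise the cause was not tested. Of 286 recomputed diet ratios of named genes 251 moved by less than their counting interval.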
